A study of Mus musculus with 4 samples.

Results

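T cell receptor signalling and T cell identity were examined through 37 genes that encode the CD3 chains, the coreceptors, the kinases and adaptors just below the receptor, T cell surface proteins and T lineage transcription factors. A probe belonged to the set when the RefSeq accession that the array design gives it led to one of the 37 symbols. All 37 genes were found, through 49 probes, among 20619 named genes. A single probe served 25 of them, and 12 had several.

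The study placed RNA of mouse lamina propria lymphocytes, the immune cells of the connective tissue under the gut epithelium, on 4 one-colour arrays. Every mouse was of the C57BL6 strain and every group received dextran sulfate sodium (DSS), a chemical that injures the colon lining, with cells taken on day 10. The 4 groups were Stat4-/- with DSS and leukemia inhibitory factor (LIF, a cytokine that signals through gp130), Stat4-/- with DSS only, wild type with both agents, and wild type with DSS only. They are called KO+LIF, KO, WT+LIF and WT here, and KO stands for the labelled knockout. Each group had 1 array and 5 mice, and nothing in the labels tells whether these mice were pooled for the array. The labels give neither the design of the Stat4 allele nor the age of the mice. The comparisons ask, as far as the labels go, how Stat4, a transcription factor that acts after interleukin-12, and LIF bear on gut lymphocytes during colitis.

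When a T cell receptor meets its peptide, the CD3 and zeta chains beside it are phosphorylated by Lck, a kinase held at the coreceptors CD4 and CD8. The kinase Zap70 then docks on these chains and phosphorylates the scaffold Lat, on which SLP-76 (Lcp2), Gads (Grap2) and Vav1 assemble. CD28 and ICOS add costimulation, and Bcl11b, TCF-1 (Tcf7) and Lef1 hold T lineage identity. In the gut wall many of these genes mark T cells, but the set is not specific to them. Several, such as Cd2, Thy1, Il7r, Txk and Sh2d1a, are also used by natural killer (NK) or innate lymphoid cells.

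Levels are log2 processed spot intensities minus the 75th percentile of the same array, taken from the brightest probe of a gene. A gene is called measured between 2 arrays where the software marked that probe as well above background on each of them. With 1 array per group there is no replicate and no test, so genes were counted once their log2 values were 1 or more apart, which is 2-fold. The software's own spot error of a member's log2 difference had a median of 0.22 and a range of 0.20 to 0.41. It covers error within arrays alone and leaves out mice, RNA extractions and hybridizations. Levels of different probes are not comparable, so single genes are set side by side only by their differences. Sums over a list are compared between arrays alone, and bright probes weigh most in them.

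The arrays were of unequal quality. Probes well above background made up 45.8% on KO+LIF, 44.8% on KO, 37.6% on WT+LIF and 61.7% on WT. Over the 12674 probes above background on all 4 arrays, WT+LIF correlated at 0.800 to 0.818 with the others, and these correlated among themselves at 0.951 to 0.980. WT+LIF was also the only array of its scan. KO+LIF had a scan of its own as well, while KO and WT shared 1 scan. The single Stat4 probe did not separate the genotypes, with a log2 difference of −0.70 between KO+LIF and WT+LIF and of 0.80 between KO and WT, and whether it lies in the deleted part is not given. Every direction between genotypes therefore rests on the labels. KO against WT and KO+LIF against KO do not use the WT+LIF array, and they are given first.

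Of the 37 genes, 24 were above background on KO+LIF, 23 on KO, 25 on WT+LIF and 34 on WT. Through the brightest probe, 21 were above background on all 4 arrays. Another 7 reached it on WT alone, the brightest array. Their WT levels lay below the dimmest level that counted as above background on the other arrays, so they gave neither a difference nor a bound. These were Cd247, which encodes the zeta chain, the kinase gene Fyn, the adaptor gene Themis, the surface genes Cd27, Cd96 and Slamf1, and the transcription factor gene Lef1. Cd40lg, the CD40 ligand of activated helper T cells, and Ubash3a, a negative regulator of receptor signalling, were above background on none. The label of the cells was borne out to the extent that Cd3d, Cd3e, Cd3g and Cd4 were above background on all 4 arrays. Markers of other cells were there too: 10 of 12 B cell markers or more, 11 of 13 epithelial markers or more and 7 of 13 neutrophil markers or more were above background on each array. The constant-region genes of the T cell receptor chains themselves had no named probe, and of that list only Ptcra, the pre-T alpha chain gene, did; it was below background on each array. In such bulk RNA, fewer cells of a type and less RNA per cell cannot be told apart.

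**Figure D1:**
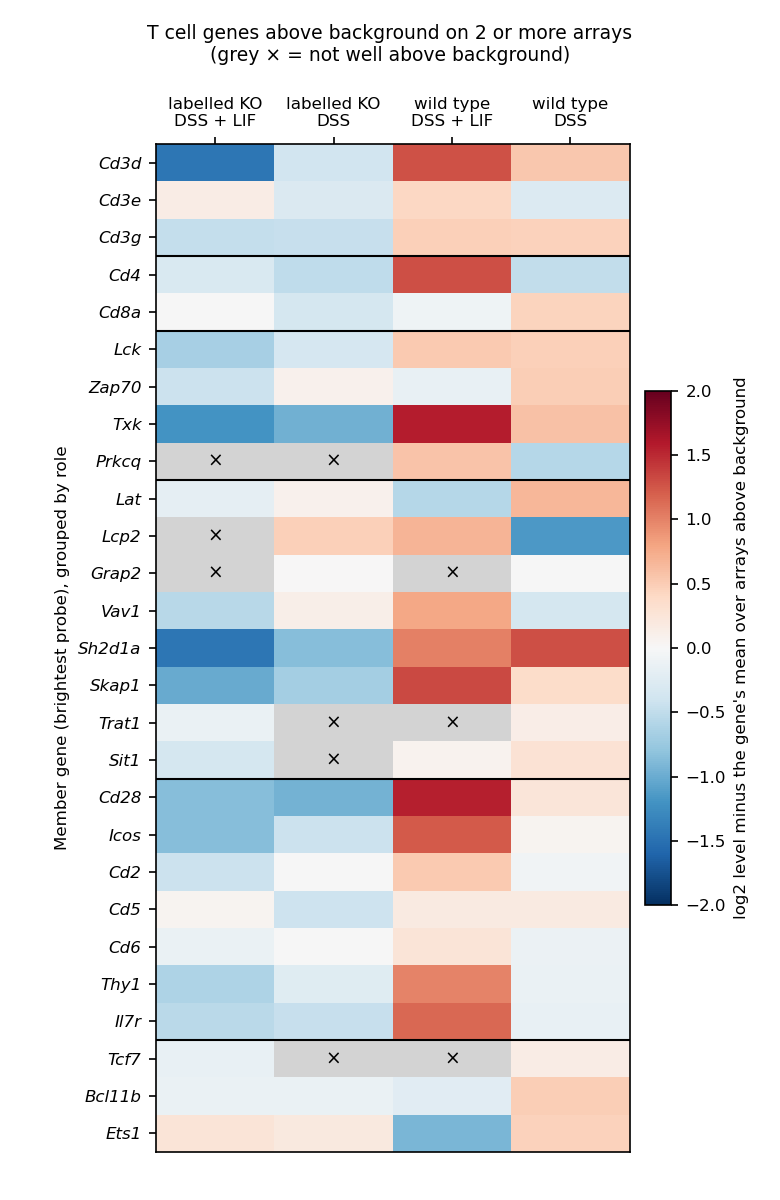
Log2 level of each T cell gene minus the mean of that gene over the arrays on which it was well above background, in 4 columns for the arrays and in rows grouped by role. Grey cells with a cross were not well above background; genes above background on fewer than 2 arrays are not drawn. The CD3 delta, Txk, Sh2d1a and Skap1 rows are blue in both labelled knockout columns and red in both wild-type columns.

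Upstream sequence is shown for the 3 CD3 chain genes, because they are neighbours on the chromosome yet differed in their values, and for Txk and Lcp2, which were past 2-fold in opposite directions in KO against WT. The starts of Cd3d and Cd3g lie head to head, 1355 bases apart, and those of Cd3d and Cd3e lie 27825 bases apart. The 250 bases before each start are given 5′ to 3′ on the strand of the gene, from RefSeq on build GRCm38.p6, at chr9:44981536-44981785 (plus strand) for Cd3d, chr9:44980432-44980681 (minus strand) for Cd3g, chr9:45009612-45009861 (minus strand) for Cd3e, chr5:72752778-72753027 (minus strand, 1 of 2 listed starts) for Txk and chr11:34046678-34046927 (plus strand) for Lcp2. Capitals mark matches, on either strand, to 6 short motifs: AGGAAG (bound by ETS factors), TGTGGT (RUNX), CAGNTG (E-box), CTTTGA (TCF and LEF), TGGAAA (NFAT) and TTCNNNGAA (STAT).
Cd3d: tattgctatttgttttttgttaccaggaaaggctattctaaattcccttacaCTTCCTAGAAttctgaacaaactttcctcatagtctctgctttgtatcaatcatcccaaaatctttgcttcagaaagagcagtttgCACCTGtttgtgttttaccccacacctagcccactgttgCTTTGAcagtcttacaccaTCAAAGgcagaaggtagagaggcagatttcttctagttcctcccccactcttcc
Cd3g: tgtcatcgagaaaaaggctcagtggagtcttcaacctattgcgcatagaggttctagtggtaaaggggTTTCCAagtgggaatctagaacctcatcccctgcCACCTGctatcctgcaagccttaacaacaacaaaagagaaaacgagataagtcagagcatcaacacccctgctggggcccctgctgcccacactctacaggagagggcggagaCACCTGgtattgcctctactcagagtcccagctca
Cd3e: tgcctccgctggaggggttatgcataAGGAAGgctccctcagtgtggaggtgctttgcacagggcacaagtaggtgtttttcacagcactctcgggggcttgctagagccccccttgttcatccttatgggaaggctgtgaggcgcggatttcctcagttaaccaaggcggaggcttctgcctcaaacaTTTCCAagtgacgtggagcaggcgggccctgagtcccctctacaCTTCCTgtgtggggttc
Txk: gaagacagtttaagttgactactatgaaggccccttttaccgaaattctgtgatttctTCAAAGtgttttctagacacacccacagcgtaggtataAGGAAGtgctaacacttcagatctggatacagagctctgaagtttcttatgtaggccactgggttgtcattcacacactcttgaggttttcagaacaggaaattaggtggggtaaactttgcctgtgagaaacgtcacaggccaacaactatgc
Lcp2: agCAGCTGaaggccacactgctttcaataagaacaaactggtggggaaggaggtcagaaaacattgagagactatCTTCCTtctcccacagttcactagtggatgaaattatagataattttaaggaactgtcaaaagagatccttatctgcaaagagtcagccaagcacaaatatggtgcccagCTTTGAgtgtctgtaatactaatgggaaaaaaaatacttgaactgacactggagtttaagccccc
The Cd3d stretch held an ETS match 198 bases before the start that overlaps the STAT-type match TTCCTAGAA, an E-box 112 bases before it, and 2 TCF and LEF matches 73 and 54 bases before it. Cd3g had 2 E-boxes and 1 NFAT match and no ETS match in this window, and Cd3e had 2 ETS matches and 1 NFAT match. Txk held 1 ETS and 1 TCF and LEF match, and Lcp2 had both of these and an E-box. The table held 35 promoters of 26 of the genes and none of the other 11. The ETS motif was in 17 of the 35 (48.6%), against 29.5% of all 32851 promoters, and the TCF and LEF motif was in 9 (25.7%), against 13.8%. E-boxes were in 18 (51.4%), against 44.8%, and the RUNX motif was in 5 (14.3%), against 14.1%. The NFAT motif was in 4 (11.4%), against 18.6%, and the STAT motif was in 3 (8.57%), against 7.02%. These are matches of letters and do not show binding.

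Under DSS alone, most T cell genes were lower in labelled knockout cells than in wild-type cells. Of 23 measured genes, 18 (78.3%) had a lower level in KO than in WT, against 45.5% of all 10500 measured genes. At 2-fold, 4 genes were lower: Sh2d1a, Txk, Cd28 and Skap1. This is 17.4% of the 23, where 6.81% of all measured genes were at least 2-fold lower. Only Lcp2 was at least 2-fold higher, against a background of 13.2%. The median log2 difference was −0.48 for the T cell genes and 0.08 for all measured genes. A further 3 genes, above background on WT but not on KO, had a bound. With them, 6 of 26 were at least 2-fold lower and 1 was higher, where 7.82% and 13.1% of all genes were with such bounds.

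The CD3 chains did not move as a block. Cd3d, the delta chain gene, had log2 levels of −0.39 in KO+LIF and 0.67 in KO, against 2.33 in WT+LIF and 1.60 in WT. Its gamma chain neighbour Cd3g had 0.27 in KO+LIF and 0.28 in KO, against 1.22 in WT+LIF and 1.20 in WT. Both genes were thus lower on each labelled knockout array than on each wild-type array. The share of all genes with this pattern was not counted, so the pattern does not set these genes apart. WT+LIF held the highest level in 53.6% of the 8045 genes measured on every array. The log2 differences between KO and WT were −0.93 for Cd3d and −0.92 for Cd3g, short of 2-fold. Cd3e, which encodes the epsilon chain, had 1.44 in KO+LIF and 1.01 in KO, against 1.71 in WT+LIF and 1.02 in WT. Its log2 difference between KO and WT was −0.01.

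Among the coreceptors, Cd4 had log2 levels of 2.11 in KO+LIF and 1.91 in KO, against 3.71 in WT+LIF and 1.93 in WT. The KO and WT arrays thus lay within 0.02 of each other, and WT+LIF stood above the rest. Cd8a, the CD8 alpha chain gene, had −1.08 in KO+LIF and −1.42 in KO, against −1.16 in WT+LIF and −0.63 in WT, a log2 difference of −0.79 between KO and WT.

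Of the kinases, Txk alone was at least 2-fold lower in KO than in WT. Txk, a Tec family kinase of T and NK cells, had log2 levels of −0.70 in KO+LIF and −0.46 in KO, against 2.08 in WT+LIF and 1.08 in WT. The genotypes did not overlap, and the KO level was 2.90-fold below the WT level (log2 difference −1.54). For Txk, and for Lck below, the share of all genes without such overlap was not counted. Lck had 1.89 in KO+LIF and 2.22 in KO, against 3.08 in WT+LIF and 3.03 in WT, so its 2 wild-type arrays were nearly equal and both lay above the labelled knockout arrays. Its log2 difference between KO and WT was −0.81. Zap70 had −0.24 in KO+LIF and 0.27 in KO, against 0.03 in WT+LIF and 0.68 in WT, and here the genotypes overlapped. Its log2 difference between KO and WT was −0.41, and 0.11 through its second probe. Prkcq, the protein kinase C theta of the T cell synapse, was above background in wild-type cells alone, at −1.19 in WT+LIF and −2.32 in WT. The WT level lay below the dimmest level that counted as above background on KO, so no bound could be given.

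Adaptors held the largest differences in both directions. Sh2d1a encodes SAP, the adaptor of SLAM family receptors, and its log2 levels were −0.15 in KO+LIF and 0.43 in KO, against 2.29 in WT+LIF and 2.58 in WT. The gap of 4.43-fold between KO and WT (log2 difference −2.15) was the widest of the 23 genes. Skap1, which links the receptor to integrin adhesion, had −0.26 in KO+LIF and 0.06 in KO, against 2.07 in WT+LIF and 1.11 in WT, and was 2.07-fold lower in KO than in WT. With normexp (offset 50) its log2 difference was −0.77, short of 2-fold, while Sh2d1a, Txk and Cd28 stayed past it. Lat had −0.72 in KO+LIF and −0.46 in KO, against −1.12 in WT+LIF and 0.11 in WT, which gave a log2 difference of −0.57 between KO and WT. Lcp2 went the other way, with −1.62 in KO and −3.25 in WT, a 3.09-fold higher level in KO. Its processed signals behind these levels were only 14.8 in KO and 12.9 in WT while the 75th percentiles that scale them were 45.3 in KO and 123 in WT, so the fold rests on the scaling. With normexp background correction (offset 50) its log2 difference was 0.75, short of 2-fold. Vav1, a guanine nucleotide exchange factor, had a log2 difference of 0.47 between KO and WT, and Grap2 had 0.02.

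Further adaptors were too dim in KO for a measured value. Sit1, which encodes a transmembrane adaptor that dampens receptor signals, had log2 levels of −1.25 in KO+LIF, −0.84 in WT+LIF and −0.61 in WT. It was at least 2.83-fold lower in KO than in WT, and Trat1, which encodes the receptor-associated adaptor TRIM, was lower by a log2 difference of at least 0.55.

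Surface genes split. Cd28 had log2 levels of 2.22 in KO+LIF and 2.12 in KO, against 4.63 in WT+LIF and 3.31 in WT, and was 2.28-fold lower in KO than in WT. Both wild-type arrays lay above both labelled knockout arrays, a pattern whose share among all genes was not counted. Icos had 1.12 in KO+LIF and 1.53 in KO, against 3.19 in WT+LIF and 2.02 in WT, and Thy1, the pan-T surface antigen, had 1.29 in KO+LIF and 1.67 in KO, against 2.89 in WT+LIF and 1.77 in WT. For Thy1 the log2 difference between KO and WT was −0.10, within the software's spot error. The same held for Cd2, an adhesion receptor, at 0.05, and for Cd6, a scavenger-family receptor, at 0.11 through its brightest probe. The second probe of Cd6 was higher in KO than in WT by 0.99, so its size of difference is not settled. Cd5, a receptor that tunes signal strength, differed by −0.58 and Il7r, the interleukin-7 receptor alpha chain gene, by −0.32.

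Of the transcription factors, Bcl11b had log2 levels of −0.35 in KO+LIF and −0.34 in KO, against −0.44 in WT+LIF and 0.27 in WT. WT alone stood higher, with a log2 difference of −0.61 between KO and WT. Tcf7 was above background at −1.31 on KO+LIF and −1.02 on WT, and was at least 2.04-fold lower in KO than in WT. Ets1 differed by −0.27 through its brightest probe and by −1.02 through its second.

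Probes of 1 gene often disagreed. For KO against WT, 5 of the genes had a second measured probe, and its difference had the same sign as that of the brightest in 2 of them, Cd6 and Ets1. The sizes differed there too, at 0.11 and 0.99 for Cd6, and −0.27 and −1.02 for Ets1. Over all 1819 genes with such pairs the sign was shared in 61.2%. Zap70, Icos and Vav1 were the genes with opposite signs, at −0.48 and 0.23 for Icos, and 0.47 and −0.09 for Vav1.

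**Figure D2:**
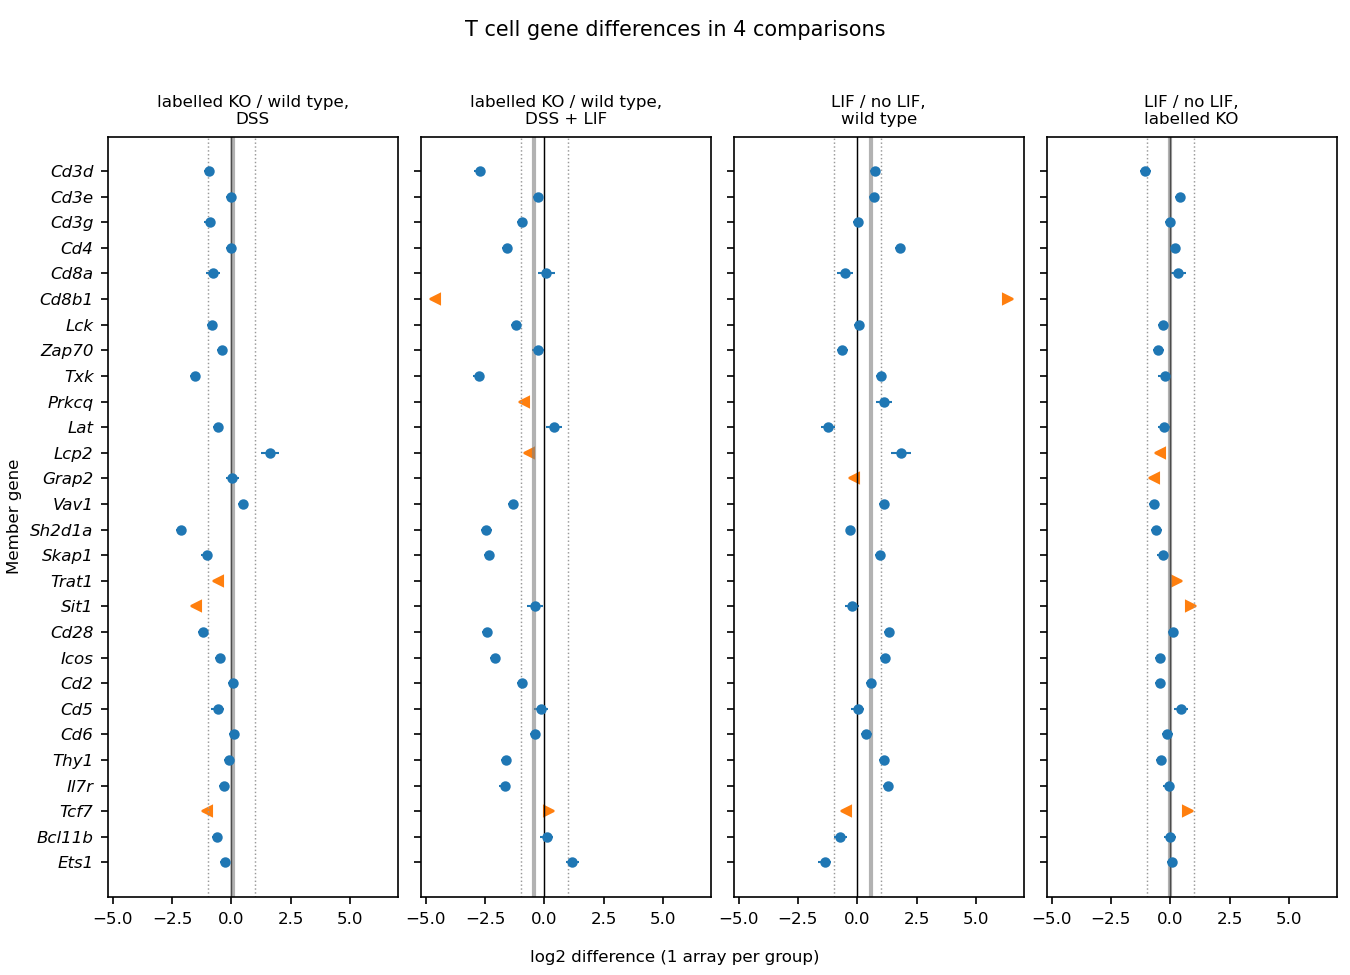
Log2 difference of each measured T cell gene in the 4 comparisons, with the grey line in each panel at the median of all measured genes and dotted lines at 2-fold. Circles are measured genes with a bar for the software's spot error to each side, and triangles are bounds that point away from 0. Sh2d1a, Txk, Cd28 and Skap1 lie beyond the lower dotted line for KO against WT and for KO+LIF against WT+LIF.

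Of the wider T cell lists under DSS, the receptor pathway genes gave a weaker picture. The surface and identity genes had a median near that of all genes. Of 53 other genes of the receptor pathway, 40 were measured, 3 were at least 2-fold higher and 6 lower in KO than in WT, with a median log2 difference of −0.27. The lowest were Ubash3b, a phosphatase that dampens the receptor (−1.99), the ubiquitin ligase gene Cblb (−1.41), the calcium channel gene Orai1 (−1.40) and Wipf1, a partner of the Wiskott-Aldrich protein (−1.32). The higher genes were the phosphatase gene Ptpn22 (1.24), the GTPase gene Rhoh (1.24) and the ERK1 gene Mapk3 (1.02). Of 40 other surface and identity genes, 38 had a named probe and 31 were measured, with a median log2 difference of 0.06. Ms4a4b, a membrane protein gene of T and NK cells (−2.82), the sialophorin gene Spn (−1.46), the checkpoint gene Ctla4 (−1.36) and the interleukin-2 receptor beta gene Il2rb (−1.24) were lower, and the T lineage transcription factor gene Gata3 was higher (1.37). So 4 of 31 were at least 2-fold lower (12.9%) and 1 was higher (3.23%). Of the pathway genes 15% were lower and 7.5% higher by 2-fold. For all measured genes these shares were 6.81% lower and 13.2% higher, and the median log2 difference was 0.08. Of the 31 surface and identity genes 41.9% were below 0, against 45.5% of all measured genes.

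Markers of other cells differed too, some in the direction of the T cell genes and others against it. Of 15 NK and innate lymphoid markers, 9 were measured and 4 were at least 2-fold lower in KO than in WT, with a median log2 difference of −0.96. Their summed linear signal, scaled to the 75th percentile, was 17.7 in KO+LIF and 21.5 in KO, against 104 in WT+LIF and 54.1 in WT. The same sum for the 37 T cell genes was 36.9 in KO+LIF and 41.0 in KO, against 113 in WT+LIF and 63.8 in WT. Neutrophil markers ran the opposite way, with 7 of 9 measured genes at least 2-fold higher in KO and sums of 2489 in KO+LIF and 3233 in KO, against 384 in WT+LIF and 556 in WT. B cell markers had 4 of 11 measured genes at least 2-fold higher in KO, with sums of 20.1 in KO+LIF and 29.6 in KO, against 40.3 in WT+LIF and 20.3 in WT. Stromal markers had 4 of 9 higher, and epithelial markers had 4 of 12 lower. Among 10 housekeeping genes, 2 lay past 2-fold on the lower side in KO, a share of 20.0% beside the 17.4% of the T cell genes, and 1 lay past it on the higher side. The part of these cell types in the T cell gene differences was not tested.

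**Figure D3:**
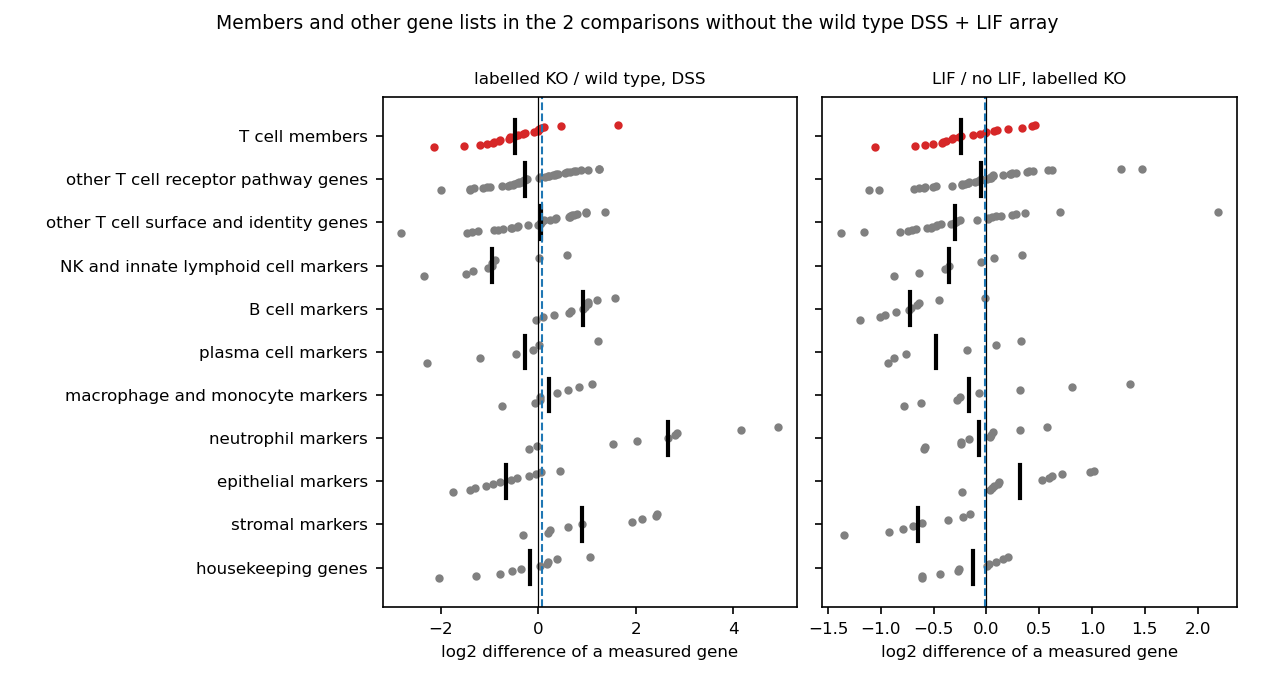
Log2 difference of each measured gene, by list, for KO against WT (left) and KO+LIF against KO (right). Black bars are list medians and the dashed line is the median of all measured genes. For KO against WT the T cell receptor genes lie at −0.48, the NK and innate lymphoid markers at −0.96 and the neutrophil markers at 2.67.

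LIF in labelled knockout cells went with small differences. Of 21 measured T cell genes, 15 (71.4%) were lower in KO+LIF than in KO, against 50.9% of all 9783 measured genes, and the median log2 difference was −0.24 against −0.01. Cd3d was the only gene past 2-fold, at 2.07-fold lower, where 3.08% of all genes were at least 2-fold lower. Its log2 difference of −1.05 was −0.38 with normexp (offset 50) and −0.64 without offset. None was 2-fold higher, where 3.21% of all genes were, so the count past 2-fold is near the background. With bounds added, 26 genes had a value and the counts were the same, where 4.08% of all genes were higher and 3.8% lower by 2-fold. Vav1 (−0.67), Sh2d1a (−0.58) and Zap70 (−0.51) had the next lowest log2 differences, and Cd5 (0.46) and Cd3e (0.43) the highest. The 2 CD3 genes Cd3d and Cd3e thus moved in opposite directions by more than their spot errors, while Cd3g differed by −0.01. Sit1, Tcf7 and Trat1 were above background on KO+LIF and not on KO, with log2 differences of at least 0.86, 0.74 and 0.29. Grap2 and Lcp2 were above background on KO and not on KO+LIF, and were lower in KO+LIF by at least 0.70 and 0.43.

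The other T cell lists had median log2 differences of −0.05 for the receptor pathway genes and −0.30 for the surface and identity genes. Of the pathway genes 39 were measured, 2 were higher, Cblb (1.47) and Orai1 (1.27), and 2 were lower, among them Mapk3 (−1.02). Of the surface and identity genes 28 were measured, and the gut homing receptor gene Ccr9 was higher (2.19) while the chromatin organiser gene Satb1 (−1.38) and Gimap6 (−1.16), an immune GTPase gene, were lower. Of all measured genes 3.21% were higher and 3.08% lower by 2-fold. The pathway list had 5.13% higher and 5.13% lower, and the surface and identity list 3.57% higher and 7.14% lower. With so few genes past 2-fold, these shares are no result about the lists. B cell markers had a median log2 difference of −0.73 with 10 of 10 measured genes lower in KO+LIF, and stromal markers one of −0.65 with 8 of 8 lower. NK and innate lymphoid markers had a median of −0.35. Whether these bear on the T cell genes was not tested.

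With LIF in both genotypes, the T cell genes were again mostly lower in labelled knockout cells, but so were most genes. Of 22 measured T cell genes, 18 (81.8%) were lower in KO+LIF than in WT+LIF, against 65.2% of all 8348 genes. At least 2-fold lower were 11 of the 22 (background 31.3%), and 1, Ets1, was higher (4.55%, background 14.1%). The median log2 difference was −1.07 for the T cell genes and −0.45 for all genes, a shift that changes with the scaling. Relative to that median of all genes, 9 of the 22 lay at least 2-fold lower, against 19.0% of all genes.

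Among measured genes the largest differences were in Txk, 6.83-fold lower in KO+LIF than in WT+LIF, and Cd3d, 6.58-fold lower. Sh2d1a was 5.43-fold lower, Cd28 5.33-fold and Skap1 5.02-fold. These sizes and their order depend on the background correction. With normexp (offset 50) the log2 differences were −1.10 for Txk, −1.14 for Cd3d and −1.15 for Sh2d1a, and Cd28 was the lowest of these at −2.12. Il7r had log2 levels of 0.26 in KO+LIF and 0.33 in KO, against 1.94 in WT+LIF and 0.65 in WT, and was 3.20-fold lower in KO+LIF than in WT+LIF. Thy1 was 3.04-fold lower, Cd4 3.02-fold, Vav1 2.52-fold and Lck 2.28-fold. Icos was 4.19-fold lower through its brightest probe, but its second probe was higher in KO+LIF, by a log2 difference of 0.78. Ets1 likewise was 2.27-fold higher through 1 probe and lower by the other (log2 difference −1.53), so its direction is not settled. The Vav1 difference turned to 0.69 with the mean over its probes, and that of Cd4 shrank to −0.57. The sizes of these means include dim values. The second probe of Vav1 was not above background on WT+LIF, and that of Cd4 was not on either array. With normexp (offset 50), Skap1 (−0.95), Lck (−0.94), Il7r (−0.78) and Vav1 (−0.56) were short of 2-fold. Cd3g (−0.95) and Cd2 (−0.95) fell just short of 2-fold, and Cd3e (−0.27), Zap70 (−0.27) and Cd8a (0.08) were close to level.

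Cd8b1, the CD8 beta chain gene, was seen on 1 array alone. Its processed signals were 2.26 in KO+LIF and 2.12 in KO, against 140 in WT+LIF and 6.73 in WT, and it was well above background on WT+LIF only. The 75th percentiles that scale these signals were 43.3 in KO+LIF, 23.8 in WT+LIF and 123 in WT. After that scaling Cd8b1 was at least 24.3-fold lower in KO+LIF than in WT+LIF, and at least 81.6-fold higher in WT+LIF than in WT. Both folds thus depend on the scaling as well as on the signals. With bounds, 12 of 26 genes were at least 2-fold lower in KO+LIF than in WT+LIF (background 29.5%) and 1 was higher (background 16.6%). For WT+LIF against WT, 9 of 27 genes were higher by that rule (background 31.4%) and 2 were lower (background 16.7%). The adjacent gene Cd8a, whose chain pairs with that of Cd8b1, was not higher on WT+LIF, with log2 levels of −1.16 there and −0.63 in WT. The value rests on 1 probe of the array that stood apart.

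The same 4 genes, Sh2d1a, Txk, Cd28 and Skap1, were at least 2-fold lower in both genotype comparisons, which share no array; Skap1 missed it in both with normexp (offset 50). That is 4 of the 21 T cell genes above background on all 4 arrays (19.0%), against 3.49% of 8045 genes. Each of the 4 genes was read through 1 probe with 1 spot, the same probe in both comparisons, so no second probe checks it. Over all genes with a second measured probe, the sign was shared in 61.2% for KO against WT. For KO+LIF against WT+LIF it was shared in 59.0%. In 14 of the 21 (66.7%) the level was lower in the labelled knockout in both comparisons, against 31.7% of all genes. Through the brightest probe, the highest of the 4 levels was on a wild-type array in 21 of 21, WT+LIF in 15 and WT in 6, against 67.9% of all genes. The lowest was on a labelled knockout array in 18 of 21, KO+LIF in 13 and KO in 5, against 42.4% of all genes. The 3 genes with their lowest level on WT+LIF were Lat, Bcl11b and Ets1. These counts change with the probe. Through the second probe, the highest level was on a labelled knockout array for Zap70, Cd6, Icos and Vav1. It was on a wild-type array for Cd4, Cd8a, Cd2, Bcl11b and Ets1. Of these second probes, only those of Icos and Ets1 were above background on all 4 arrays.

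The medians of the wider T cell lists under LIF were also below 0, as was that of all genes. Of the other receptor pathway genes 34 were measured, 2 were at least 2-fold higher and 13 lower in KO+LIF than in WT+LIF, with a median log2 difference of −0.82. The lowest were Sh2d2a, which encodes the Lck-binding adaptor TSAd (−3.42), Wipf1 (−2.46), Ubash3b (−2.32) and Malt1 (−2.17), a protease of lymphocyte receptor signalling. Orai1 (2.23) and the AP-1 gene Jun (1.97) were higher. Of the surface and identity genes 25 were measured, 7 were lower, with Gimap3 (−2.97) and Gimap4 (−2.56) the lowest, and 3 were higher, Ccr9 (5.41), the lymphotoxin beta gene Ltb (1.19) and Ctla4 (1.07). Of all measured genes 31.3% were lower and 14.1% higher by 2-fold. The pathway list had 38.2% lower and 5.88% higher, and the surface and identity list 28% lower and 12% higher. The share of lower genes was thus near the background in the pathway list and below it in the surface and identity list. All 7 measured NK and innate lymphoid markers were at least 2-fold lower (median −2.11), and 6 of 7 neutrophil markers were at least 2-fold higher (median 1.99). Of 10 housekeeping genes, 6 were at least 2-fold lower.

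LIF in wild-type cells compares WT+LIF with WT, and the T cell genes moved there about as all genes did. Of 24 measured T cell genes, 8 were at least 2-fold higher (33.3%, background 34.5%) and 2 were lower (8.33%, background 13.6%). The median log2 difference was 0.64 against 0.57 for all 8963 genes. These shares are near the background and are not a result about the T cell genes. The higher genes were Lcp2 (1.83), Cd4 (1.78), Cd28 (1.32), Il7r (1.30), Icos (1.17), Thy1 (1.13), Prkcq (1.13) and Vav1 (1.13), and the lower ones were Ets1 (−1.37) and Lat (−1.23). The processed signals of the 8 higher genes were lower in WT+LIF than in WT. Their folds thus rest on the scaling, with 75th percentiles of 23.8 in WT+LIF and 123 in WT. Lcp2 was also dim, at 8.94 in WT+LIF and 12.9 in WT. Of the 8 higher genes, 1 was left with normexp (offset 50). Icos was at −1.32 through its second probe and Vav1 at −0.60 with the mean over its probes, and Ets1 was at 0.028 through its second probe, so these directions depend on the probe. The mean for Vav1 takes in its second probe, which was not above background on WT+LIF. Relative to the median of all genes, 2 stayed at least 2-fold higher, Cd4 and Lcp2, and 5 were at least 2-fold lower, Lat, Ets1, Bcl11b, Zap70 and Cd8a, where 18.2% of all genes were higher and 22.0% lower by that measure, so these counts are not above the background either. Cd3d (0.73), Cd3e (0.69) and Cd2 (0.59) lay close to that median, and Cd3g (0.02), Lck (0.05) and Cd5 (0.01) were below it.

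The wider pathway list had 12 of 37 genes at least 2-fold higher in WT+LIF than in WT, led by the ubiquitin ligase gene Traf6 (2.92), Sh2d2a (2.85), the diacylglycerol kinase gene Dgka (2.31) and the calcineurin gene Ppp3ca (2.06). Orai1 (−2.36), Jun (−1.82) and the adaptor gene Nck1 (−1.06) were lower. The surface and identity list had 8 of 27 higher, with Gimap3 the highest (3.19), and 5 lower, with Ccr9 the lowest (−4.13). Of all measured genes 34.5% were higher and 13.6% lower by 2-fold. The pathway list had 32.4% higher and 8.11% lower, and the surface and identity list 29.6% higher and 18.5% lower. The shares of higher genes are not above the background and are no result about these lists.

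The LIF difference in labelled knockout cells minus that in wild-type cells had a median of −0.50 over the 21 T cell genes and of −0.53 over 8045 genes, so the T cell genes did not stand apart. It was 1 or more below 0 on the log2 scale in 10 of 21 (47.6%), against 33.4% of all genes, and furthest below 0 for Vav1 (−1.80), Cd3d (−1.78), Cd4 (−1.58), Icos (−1.58) and Thy1 (−1.51). Ets1 was the only one above 1 (1.45), where 16.7% of all genes were at least 1 above 0. Through its second probe Ets1 had LIF differences of −0.48 in labelled knockout cells and 0.028 in wild-type cells, so that direction is not settled. Each of these values includes the WT+LIF array, and with 1 array in each group the interaction has no error of its own.

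**Figure D4:**
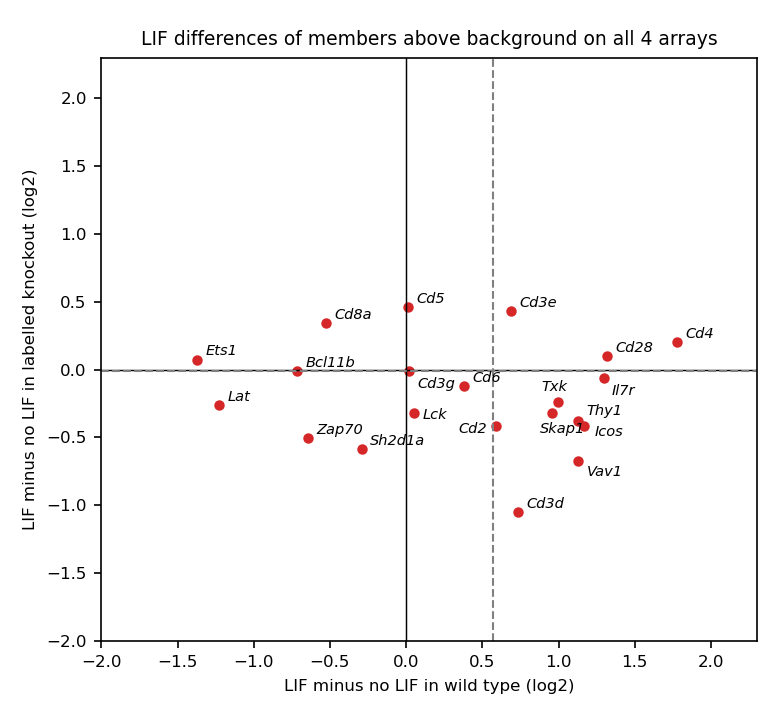
LIF difference of the 21 T cell genes above background on all 4 arrays, in labelled knockout cells (vertical axis) against wild-type cells (horizontal axis), both in log2 units; dashed lines are the medians of all measured genes. Vertical values run from −1.05 (Cd3d) to 0.46 (Cd5), and horizontal values run from −1.37 (Ets1) to 1.78 (Cd4).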

How the data were processed

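The authors deposited 1 scanner file per array with spot intensity values from Agilent Feature Extraction, with background subtracted by the software (11.0.1.1 in the file headers, 9.1 in the submitters' processing notes). The authors also deposited a table of log2 values of the same arrays, whose normalization was not given in the sources used here; its column medians were 3.30, 3.30, 2.54 and 3.30 for KO+LIF, KO, WT+LIF and WT, it correlated at 0.971 to 0.992 with the scanner values, so its scale is log2 and higher is brighter, and it served as an alternative.

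Outlier-flagged spots were left out, and log2 intensities of the spots of a probe were averaged and reduced by the array's 75th percentile. Of 39335 probes kept, 69.1% were named through RefSeq accessions, with a table of assembly GRCm38.p6 used for names and promoters; the array headers give build mm9. The software's mark for signal well above background had to be on 50% or more of a probe's spots, and no spot was saturated. Of several probes the one with the highest mean over the 4 arrays was used. A gene with all probes below background on 1 array could receive a bound: the bright level minus the dim probe's own level or, if higher, the lowest level above background on that array. No bound was given where the bright level did not exceed the level subtracted. The number of arrays limits the precision, and a share near the background is no result about the members. Alternatives were normexp (limma 3.58.1 in R 4.3.3, offset 50, on median signals because the files hold no mean signal), quantile scaling, scaling to the median of shared probes, no background filter, genes measured on all 4 arrays, the mean over probes, the second probe and the authors' table. Normexp without offset was chosen after seeing the data. Named in the text were all 37 members and, from the other T cell lists, at most the 4 highest and 4 lowest genes past 2-fold; some of these are not reported here. The members and lists were chosen with earlier results of these data known. Counting was tested on simulated data. Mock-treated mice are not analysed here.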

Additional observations from a re-analysis of the deposited data

Results flagged for a closer look

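In 8 cases the same comparison ran in opposite directions for 1 gene in the 2 settings, each side by more than 2 spot errors or as a bound. The difference between the sides was not tested, because each group has 1 array. Between genotypes, Vav1 had a log2 difference of −1.34 in KO+LIF against WT+LIF and of 0.47 in KO against WT. These directions depend on the probe. The mean over Vav1 probes was 0.69 in KO+LIF against WT+LIF, and its second probe was −0.09 in KO against WT. That second probe was not above background on WT+LIF. Lcp2 was lower by at least 0.63 in KO+LIF than in WT+LIF (−0.63 as a bound) and differed by 1.63 between KO and WT. Its signals were dim, and the fold between KO and WT rests on the scaling. Tcf7 was higher by at least 0.18 in KO+LIF than in WT+LIF and lower in KO than in WT, with −1.03 as the bound.

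For LIF, Cd3d differed by −1.05 in labelled knockout cells and by 0.73 in wild-type cells, and Cd2 differed by −0.42 in labelled knockout cells and by 0.59 in wild-type cells. Vav1 differed by −0.67 in labelled knockout cells and by 1.13 in wild-type cells. These directions depend on the probe: the second probe of Vav1 differed by 0.48 in labelled knockout cells, and the mean over its probes by −0.60 in wild-type cells. The second probe was not above background on WT+LIF, which enters that mean. Tcf7 had bounds of 0.74 in labelled knockout cells and −0.47 in wild-type cells. Lcp2 had a bound of −0.43 in labelled knockout cells and differed by 1.83 in wild-type cells, where its signals were dim and the fold rests on the scaling. The median of all measured genes in that wild-type comparison was 0.57.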

How the results depend on the processing

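No paired analysis was possible because each group has 1 array and the labels give no replicate numbers. Of 28 single-gene differences past 2-fold, 28 kept their direction with normexp (offset 50, 11 still past 2-fold), normexp without offset (19), quantile scaling (27), median scaling (25), no background filter (28) and the authors' table (27), 24 did with the mean over probes, and 0 of the 4 that had a second measured probe did with that probe. Without the filter the value of a single gene is the same by construction, and so is the mean over probes of a gene with 1 probe. Among these genes only Cd4, Ets1, Icos and Vav1 had several probes. All reversals with the mean over probes were in Ets1, Icos and Vav1. That mean took in every probe of a gene, also those not above background, such as the second Vav1 probe on WT+LIF. The authors' table is the same arrays under another scaling and no separate evidence. The cause of the changes below was not tested.

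For KO against WT, the 1 higher gene became 0 with normexp (offset 50), with genes measured on all 4 arrays and with the second probe. The 4 lower genes became 10 without the background filter, 6 with the authors' table and 1 with the second probe. The median over T cell genes minus that over all genes, −0.56, became −0.84 without the filter and reversed to 0.14 with the second probe, which 5 genes had. For KO+LIF against WT+LIF, the 1 higher gene became 0 with both normexp settings and the second probe. The 11 lower genes became 7 with normexp (offset 50), 12 with normexp without offset and 17 without the filter. They became 8 with the mean over probes and 1 with the second probe. The median, −0.62, became −0.29 with the mean over probes and −0.018 with the second probe. Reversed here were Ets1 (−0.17 with the mean over probes, −1.53 with the second), Icos (0.78 with the second) and Vav1 (0.69 with the mean).

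For LIF in wild-type cells, the 8 higher genes became 1 with normexp (offset 50), 3 without offset, 5 with median scaling, 5 with the mean over probes and 0 with the second probe. They became 12 without the filter, 7 with quantile scaling, 7 with the authors' table and 6 with genes measured on all 4 arrays. The 2 lower genes became 1 with both normexp settings and the second probe, and 4 without the filter. The median, 0.07, became −0.33 without the filter, −0.42 with the mean over probes and −1.16 with the second probe. Reversed were Ets1 (0.028 with the second probe), Icos (−0.077 with the mean, −1.32 with the second) and Vav1 (−0.60 with the mean). The median of all genes itself, 0.57, was 0.43 with median scaling and 0.07 with normexp (offset 50). For LIF in labelled knockout cells, the 0 higher genes became 1 without the filter. The 1 lower gene became 0 with normexp (offset 50) and the second probe, 4 without the filter and 3 with normexp without offset. The median, −0.23, reversed to 0.012 with normexp without offset. The LIF difference of labelled knockout minus wild-type cells, 0.02 relative to all genes, became 0.34 with the second probe.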
